A study of Drosophila melanogaster with 2 samples.

Results

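The genes described here encode the nuclear pore complex and the machinery that moves proteins and RNA through it. They were taken by symbol from the protein-coding genes of the dm6 gene models: every symbol that starts with Nup and a digit (21 genes), and 18 genes named one by one, which gave 39 of 13968 protein-coding genes on 7 chromosomes. The gene listed under its older symbol Mtor (Megator) is Mgtor in the gene models and was matched through its synonyms. The assay was chromatin immunoprecipitation with sequencing (ChIP-seq) of the CG30020 protein in 1 group of Drosophila melanogaster, a transgenic line that stably carries this protein with eGFP, a green fluorescent tag, at its C terminus. Whole embryos of both sexes, pooled over 0 to 24 h of development, gave 2 biological replicates, numbered 2 and 3. The labels describe no other genotype or treatment, and an antibody against GFP pulled down the tagged protein. The promoter that drives the transgene is not given in the sources used here. Because whole embryos of all stages were pooled, the data do not show which cells or stages carried a peak.

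The nuclear pore is a ring-shaped channel through the nuclear envelope, built from nucleoporins (Nups) that form stacked outer and inner rings, a central channel filled with flexible repeats, filaments on the cytoplasmic side and a basket on the nuclear side. Carrier proteins of the karyopherin family bind cargo and pass through the channel, and the small GTPase Ran, kept in its GTP form in the nucleus and its GDP form in the cytoplasm, sets the direction. In some contexts nucleoporins also contact chromatin.

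The sequences under the promoter peaks are shown for 8 of the 10 members with the highest signal (Mgtor, the strongest, and Gp210 are not shown). They are followed by 2 members without a peak above the threshold, Cse1 and mbo, which had only weak peaks below it. Each run is 101 bases of dm6 (RefSeq copy of Release 6), written 5′ to 3′ on the strand of the gene. The first 8 are centred on the summit, the position of highest signal in a peak, and the last pair on the transcription start site (TSS). Capitals mark matches, on either strand, to 7 searched letter strings: TATCGATA (the DNA replication-related element, DRE), CGATA (contained in it), GGTCACAC (the core of promoter Motif 1), CAGCTG (an E-box), TATAAA (the TATA box), GAGAG (GAGA) and TCAGT (initiator).
Ran: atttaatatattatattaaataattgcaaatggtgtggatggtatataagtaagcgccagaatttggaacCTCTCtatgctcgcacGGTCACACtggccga
Nup98-96: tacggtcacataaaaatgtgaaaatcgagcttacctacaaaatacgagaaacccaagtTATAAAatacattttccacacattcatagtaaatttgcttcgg
Kap-alpha3: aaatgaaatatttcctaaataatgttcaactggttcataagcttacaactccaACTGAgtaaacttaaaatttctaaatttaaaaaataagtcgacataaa
Nup107: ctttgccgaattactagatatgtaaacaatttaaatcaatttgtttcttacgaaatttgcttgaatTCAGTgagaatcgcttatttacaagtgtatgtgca
Nup37: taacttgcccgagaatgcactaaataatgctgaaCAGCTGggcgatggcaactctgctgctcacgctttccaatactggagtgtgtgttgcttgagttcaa
RanGAP: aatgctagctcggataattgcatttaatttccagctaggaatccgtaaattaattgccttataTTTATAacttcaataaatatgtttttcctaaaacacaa
Nup93-2: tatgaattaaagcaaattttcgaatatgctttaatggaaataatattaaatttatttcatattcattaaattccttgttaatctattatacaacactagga
Nup160: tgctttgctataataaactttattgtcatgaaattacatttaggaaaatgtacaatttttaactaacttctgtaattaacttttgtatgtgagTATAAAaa
Cse1: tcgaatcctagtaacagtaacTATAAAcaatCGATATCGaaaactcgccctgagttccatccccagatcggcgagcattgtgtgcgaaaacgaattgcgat
mbo: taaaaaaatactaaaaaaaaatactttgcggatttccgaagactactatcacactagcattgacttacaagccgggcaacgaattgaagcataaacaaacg
In order, the windows are chrX:11148600-11148700 (minus strand), chr3R:23781578-23781678 (minus), chr3R:9577801-9577901 (minus), chr2L:10736088-10736188 (minus), chr3R:25247494-25247594 (plus), chr2L:19444846-19444946 (plus), chr3R:14898406-14898506 (minus), chr2L:11123639-11123739 (plus), chr2L:16825157-16825257 (minus) and chr3R:12679002-12679102 (minus). The Ran window holds Motif 1 starting 36 bases after the summit and GAGAG, on the other strand, at 20 bases after it. The Kap-alpha3 and Nup107 windows hold TCAGT, at 3 and 16 bases after the summit (in Kap-alpha3 on the other strand). The Nup37 window holds an E-box starting 16 bases before it. The windows of Nup98-96, RanGAP and Nup160 hold TATAAA, at 8, 13 and 43 bases after the summit (in RanGAP on the other strand). Nup93-2 and mbo hold none of the strings, and the TSS window of Cse1, which has no peak above the threshold, holds TATAAA and CGATA in both orientations.

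A gene was called bound when a summit of the authors' list of peaks thresholded by irreproducible discovery rate (IDR) fell no more than 500 bp from one of its TSSs. Of the 39 genes 23 (59%) were bound, beside 30.7% of all protein-coding genes. With the strongest peaks of replicate 2 alone, as many as the IDR list holds, 25 members (64.1%) were bound beside 29.7% of all genes. With those of replicate 3 alone it was 21 members (53.8%) beside 30.7%. Both replicates called 19 of the 39 (48.7%), against 26.2% of all genes. Using IDR peaks at or above their median signal, 14 members (35.9%) were bound beside 18% of all genes. In the relaxed pooled list of 30000 peaks, 36 members (92.3%) had a promoter peak beside 46.3% of all genes. The members' share thus lay above that of all genes under each of these rules, and since the gene list was chosen with earlier results known, no test was made of that difference. Members with 1 TSS were bound in 15 of 28 cases (53.6%, all such genes 26%), and those with more than 1 in 8 of 11 (72.7%, all such genes 43.6%). None of the 39 lay on chromosome 4 or Y, and none lay in a 100000-bp bin of which IDR peaks covered at least 10%.

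**Figure D1:**
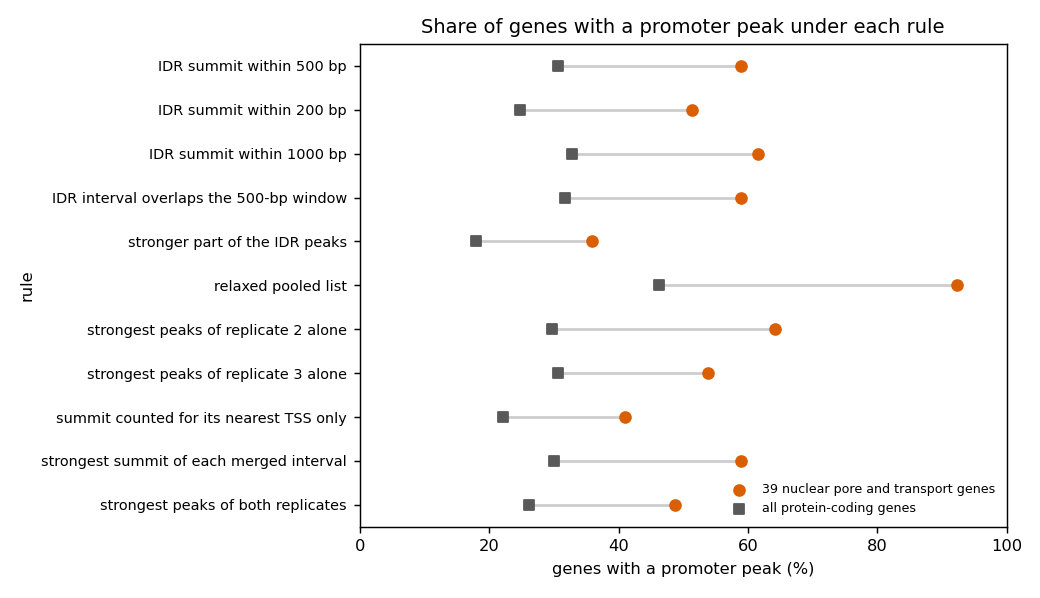
Share of genes with a promoter peak (%) under each rule, for the 39 nuclear pore and transport genes (circles) and all protein-coding genes (squares). The circle lies to the right of the square in every row, from 35.9% against 18% for IDR peaks at or above their median signal to 92.3% against 46.3% in the relaxed pooled list.

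Peak strength is given as a multiple, the authors' signal of a gene's strongest promoter peak divided by that of the median IDR peak, and in each replicate divided by the median of the peaks matched to IDR summits within 250 bp. For a bound member the replicate value is that of the strongest peak within 250 bp of its IDR summit, and for the others that of the strongest promoter peak. The scale of the authors' signal is not stated and the lists carry no read depth, so the spread between replicates is the only error available. The 23 bound members had a median multiple of 1.51 (quartiles 0.71 and 2.09), beside 1.13 (0.79 and 1.83) for all 4284 bound genes. In this scale 14 of the 23 exceeded the median IDR peak, beside 2513 of all 4284 bound genes at or above it, a similar share. No member reached the strongest peaks of the genome, which run up to 93.1 times. Between replicates, the log2 ratio of the multiples (replicate 3 over replicate 2) had an SD of 0.51 over the 22 bound members matched in both, and of 0.61 over 4916 IDR peaks. Differences between members smaller than about that spread are not resolved. The distributions crossed. At the 20th percentile the members stood at 0.67 times and all bound genes at 0.73, at the 90th at 5.67 and 4.20, and at the 96th at 8.12 and 13.2. The gap at the 20th percentile is small beside the spread between replicates, and the upper percentiles of 23 members rest on few genes. A difference in shape is thus not resolved.

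**Figure D2:**
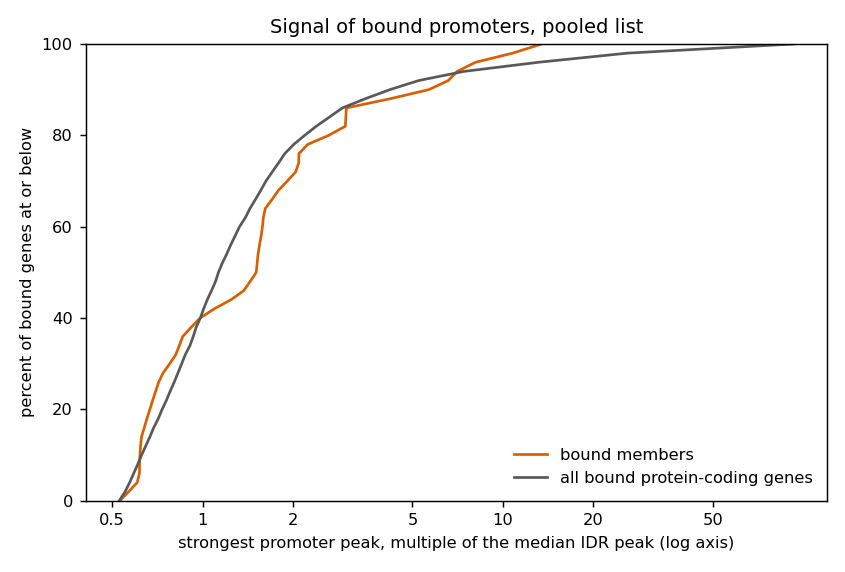
Percent of bound genes (y) at or below a given multiple of the median IDR peak (x, log axis), for the 23 bound members and all 4284 bound protein-coding genes, from the pooled list. The medians are 1.51 and 1.13, and the members end at 13.5 times while the genome runs to 93.1 times.

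The strongest promoter peak lay at the nuclear basket gene Mgtor (FBgn0013756, 2R, 11852617 to 11861202, plus strand), which encodes the long coiled-coil filament protein called Tpr in vertebrates. Its multiple was 13.5 in the pooled list, 12.8 in replicate 2 and 11.7 in replicate 3, and the peak ranked 163 of 5048. The summit lay 84 bp upstream of the single TSS, in an interval of 1511 bp, with a second summit of 2.53 times 119 bp downstream of the TSS. Both replicates placed Mgtor above every other member. The other basket genes were far lower. Nup50, a partner of importin α in import, was at 0.62 times in the pooled list, 0.71 in replicate 2 and 0.38 in replicate 3, and was bound in the strongest peaks of replicate 2 but not of replicate 3. Nup153, the nucleoporin that anchors the basket, had no IDR summit, and its relaxed peaks stood at 0.46, 0.57 and 0.24 times in the pooled, replicate 2 and replicate 3 lists. The summits of these peaks lay at -446, -46 and -398 bp from the TSS, so the values of the replicates belong to different peaks. Nup153 was among the strongest peaks of replicate 2 only.

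Among genes of the Ran system, Ran itself (FBgn0020255, X, 11144852 to 11148716, minus strand) followed Mgtor at 7.39 times, with 8.42 in replicate 2 and 5.56 in replicate 3. Its strongest summit lay 66 bp downstream of a TSS, and a second one of 2.68 times lay 140 bp upstream, in an interval of 1965 bp, the widest of the 23. RanGAP (FBgn0003346, 2L, 19441959 to 19447317, plus strand) encodes the protein that makes Ran hydrolyse GTP in the cytoplasm. It stood at 1.80 times in the pooled list, 1.85 in replicate 2 and 1.49 in replicate 3. Its summit lay 152 bp upstream of an internal TSS and nearer to Hs2st, which starts 298 bp away on the other strand. Ntf-2, which returns Ran to the nucleus, was not bound. It had a relaxed peak at 0.19 times in the pooled list and 0.34 in replicate 2, at -466 and -479 bp from the TSS, and none in replicate 3. Ran was thus high in both replicates and Ntf-2 low or absent in both.

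Of the Y complex, the outer-ring scaffold of the pore, 7 of 9 genes were bound, beside 30.7% of all genes. Each replicate alone also gave 7 of 9, but not the same genes. Replicate 2 called Nup133 and not Nup75, and replicate 3 called Nup75 and not Nup133. Nup98-96 (FBgn0039120, 3R, 23774225 to 23781621, minus strand) makes 1 precursor that is cut into Nup98 and Nup96. Its peak stood at 6.33 times in the pooled list, 6.02 in replicate 2 and 5.47 in replicate 3, with the summit 7 bp upstream of the TSS. Nup98-96 was below Ran in both replicates, in each by less than the spread between replicates. Nup107 on 2L followed at 2.99 times (3.15 and 2.38 in replicates 2 and 3), with its summit 67 bp upstream. Nup37 on 3R stood at 2.09 times (2.07 and 1.79), Nup160 on 2L at 1.58 (1.34 and 1.45) and Nup43 on 3R at 1.53 (1.93 and 1.08). These scaffold subunits were above the median IDR peak in both replicates.

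Lower in the same complex were Elys, the subunit that brings pore assembly to chromatin after mitosis, and Nup75. Elys on X stood at 0.72 times in the pooled list, 0.64 in replicate 2 and 0.65 in replicate 3. Nup75 on 2R was at 0.69 times in the pooled list and 0.70 in replicate 3, and replicate 2 had no peak within 250 bp of the summit. Nup44A, the Seh1 subunit, fell just short of the threshold: its relaxed pooled peak of 0.50 times ranked 5292, where the lowest IDR peak had 0.53 times, and both replicates gave a similar level (0.44 and 0.47). Nup133 differed between replicates. It had a peak of 1.79 times in replicate 2, at -109 bp from its TSS (rank 1103 of 30000) and none at the promoter in replicate 3 or the pooled list.

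The inner ring and the central channel line the passage. In the inner ring 3 of 6 genes were bound, 3 in each replicate alone, and in the central channel 1 of 3, beside 30.7% of all genes. The inner-ring genes called were not the same in each replicate, with Nup154 in replicate 2 only and Nup188 in replicate 3 only. The paralogues Nup93-2 on 3R and Nup93-1 on X encode versions of the same scaffold protein, and both were bound. Nup93-2 stood at 1.60 times (1.47 and 1.43 in replicates 2 and 3) with summits at -84 and -284 bp from the TSS. Nup93-1 was lower, at 0.65 times (0.75 and 0.54), with its summit 362 bp upstream and nearest to Clic. In both replicates the value of Nup93-2 exceeded that of Nup93-1. Nup188 on 2R stood at 0.62 times, with 0.33 in replicate 2 and 0.66 in replicate 3, and was bound by the strongest peaks of replicate 3 only. Its giant scaffold relative Nup205 was not bound (0.42 times in the pooled list, 0.43 and 0.35 in the replicates). Nup154, the Nup155 counterpart, was bound in replicate 2 alone, at 0.58 times with the summit at -303 bp. Its strongest promoter peaks elsewhere were different ones, 0.38 times at -43 bp in replicate 3 and 0.45 at -406 bp in the pooled list. Near the TSS replicate 2 had 0.30 times, at -95 bp. Nup35 stood at 0.35, 0.48 and 0.24 times in the pooled, replicate 2 and replicate 3 lists.

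Of the 3 channel nucleoporins with phenylalanine-glycine repeats, Nup58 alone had an IDR summit, at 0.62 times and 451 bp upstream of the TSS, nearer to the V-ATPase gene Vha13. Its replicates differed, with 0.92 times in replicate 2 and 0.37 in replicate 3 at the matched summit. Replicate 3 had a slightly higher promoter peak of 0.41 times at -72 bp from the TSS. Nup54 (0.45 times pooled, 0.45 and 0.46 in the replicates) and Nup62 (0.26 pooled, 0.21 and 0.29) held weak relaxed peaks in all lists. The channel genes were low in every list apart from Nup58 in replicate 2. On the cytoplasmic side 1 of 4 genes was bound, beside 30.7% of all genes. It was Nup358, the large RanBP2 counterpart that binds Ran and SUMO-modified RanGAP in vertebrates. It stood at 0.81 times (0.70 and 0.73). Rae1, an mRNA export factor, was at 0.41 times (0.33 and 0.41) without an IDR summit. Nup214 was at 0.10 times in the pooled list (0.41 and 0.17), with the replicate 2 summit at -261 bp and the others at -477 (pooled) and -475 bp. The Nup88 counterpart mbo had a promoter peak only in the replicate 2 list (0.22 times). Of the membrane-spanning proteins, Gp210 on 2R stood at 2.10 times (1.92 and 1.87), whereas Ndc1 was at 0.49 times (0.40 and 0.46) and not bound. Gp210 exceeded Ndc1 in both replicates.

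Among import factors 4 of 6 genes were bound, beside 30.7% of all genes, with 5 in replicate 2 alone and 4 in replicate 3 alone. Fly importin α comes in 3 forms, the adaptors that read the classical nuclear localisation signal, and their genes spread widely. Kap-alpha3 (FBgn0027338, 3R, 9574484 to 9577733, minus strand) stood at 3.01 times in the pooled list, 2.43 in replicate 2 and 2.81 in replicate 3, with its summit 118 bp upstream. Kap-alpha1 on 3L was at 0.86 times (0.63 and 0.88). Pen, the importin α2 gene known for its role in the germ line, had only a relaxed peak of 0.12 times in the pooled list and 0.17 in replicate 3, and no promoter peak in replicate 2. The order Kap-alpha3, Kap-alpha1, Pen held in both replicates, counting the absence in replicate 2 as lowest. The importin β gene Fs(2)Ket, whose product carries the adaptor and its cargo, was at 0.53 times, the weakest bound member at rank 5033 of 5048, and its replicates gave 0.71 and 0.35. The importin 7 gene msk stood at 1.35 times (1.23 and 1.24). Its summit lay 159 bp upstream and nearer to Arp3, an actin-nucleating subunit.

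Transportin, encoded by Tnpo (FBgn0024921, 3L, 6193480 to 6200385, plus strand), imports RNA-binding proteins and was not bound by the IDR rule. Both replicates nevertheless held a clear peak at its promoter. Replicate 2 had it at 1.98 times the median, 94 bp upstream (rank 981 of 30000), and replicate 3 at 1.76 times, 146 bp upstream (rank 1009). The nearest summit of the pooled list lay 3843 bp away. The 5048 IDR peaks are exactly the 5048 strongest of the pooled list, so a peak that the pooled list lacks cannot enter the IDR set. Of 4182 sites that the strongest peaks of both replicates shared within 250 bp, 30 had no pooled summit within 500 bp, and Tnpo, with its divergent neighbour Sf3b6, was the only member among them. Tnpo was therefore high in both replicates and absent from the lists made from both.

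Export receptors had 2 of 3 genes bound, beside 30.7% of all genes, and each replicate alone also gave 2. The exportin gene emb, whose product CRM1 carries proteins with a leucine-rich export signal, stood at 1.51 times (1.41 and 1.30 in replicates 2 and 3), 68 bp upstream of its TSS. The mRNA exporter gene sbr (Nxf1) was at 1.01 times (1.02 and 0.86), with a second summit of 0.64 times 267 bp upstream. Cse1, which returns importin α to the cytoplasm, was not bound and stood at 0.29 times in the pooled list (0.31 and 0.29). The replicates put emb first and Cse1 last of these 3. Over all transport factors 8 of 12 genes were bound, and over the structural pore genes 15 of 27, both beside the same share of all genes.

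**Figure D3:**
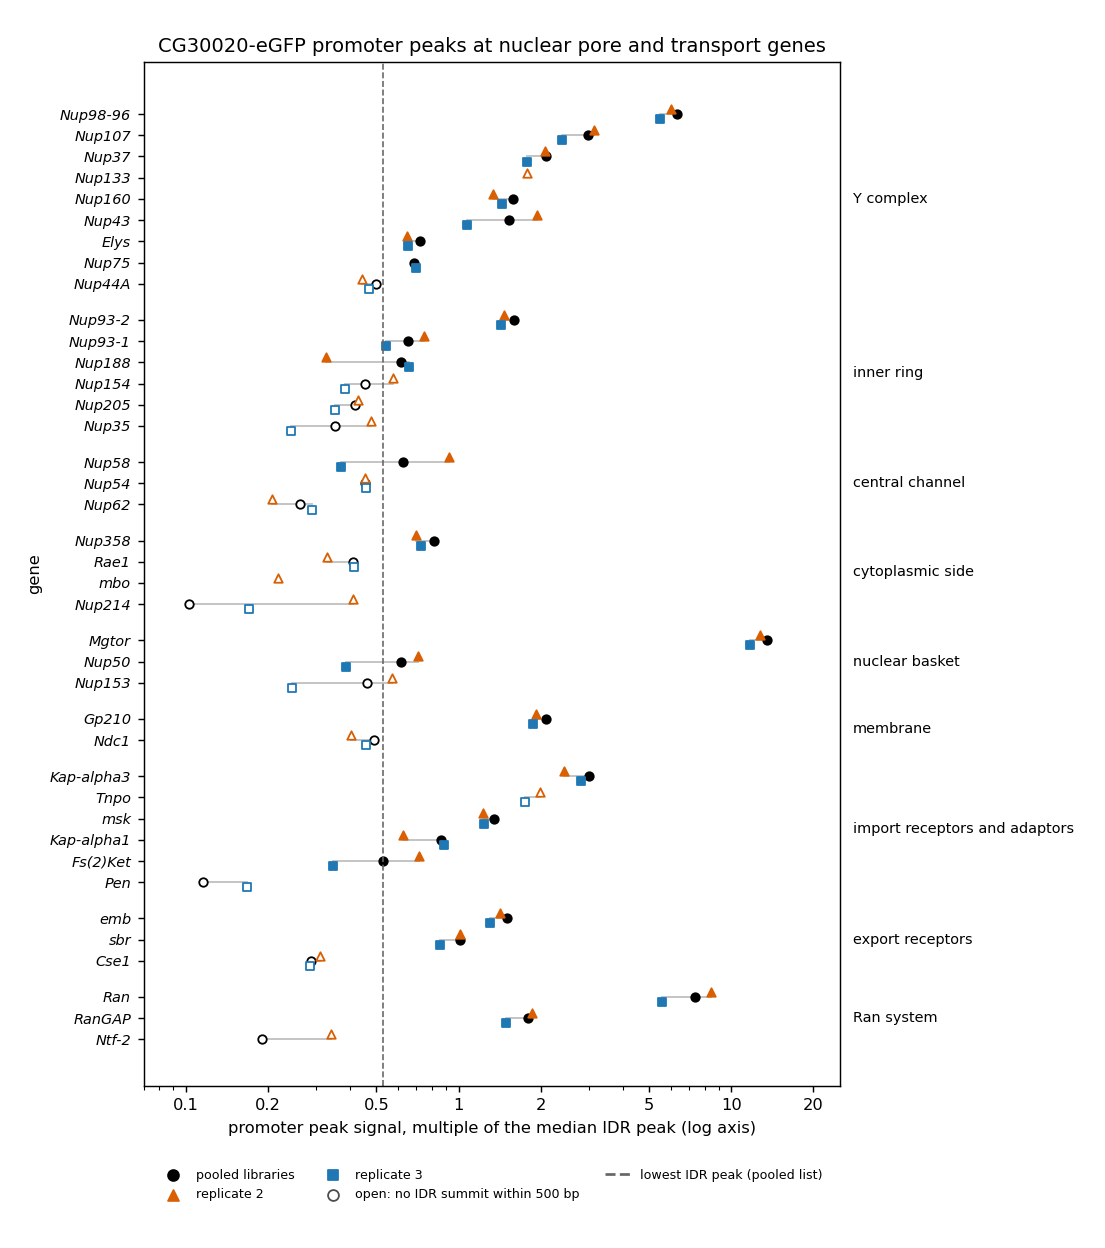
Strongest promoter peak of each of the 39 genes (rows, by role) relative to the median IDR peak (x, multiple, log axis) in the pooled list (circles), replicate 2 (triangles) and replicate 3 (squares), filled where the gene has an IDR summit within 500 bp. Mgtor, Ran and Nup98-96 lie above 5 times in all lists, and the open symbols lie below the lowest IDR peak (dashed line, 0.53 times) in the pooled list, while Tnpo (1.98 and 1.76) and Nup133 (1.79 in replicate 2) have no pooled value.

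Most members without an IDR summit had a weaker peak. Of the 16, 13 had a peak in the relaxed pooled list, with a median multiple of 0.41 (0.10 to 0.50), below the lowest IDR peak by construction. The other 3 were Tnpo, Nup133 and mbo, whose nearest pooled summits lay 3843, 3838 and 12550 bp away. For comparison, 4284 of the 13968 genes in the background were bound, and 6464 had a promoter peak in the relaxed pooled list. Most unbound genes of the background thus lacked a relaxed pooled peak, unlike the unbound members. No test was made of that difference. Of the 23 bound members 18 were also called by the strongest peaks of both replicates. In all, 8 members were called by 1 replicate only, 6 of them by replicate 2 (Fs(2)Ket, Nup50, Nup58, Nup133, Nup153 and Nup154) and 2 by replicate 3 (Nup75 and Nup188), and 12 were called by neither. Of all 13968 protein-coding genes, replicate 2 called 4149, replicate 3 4294 and both 3653. Over all genes replicate 3 thus called slightly more, unlike over the members. Apart from Nup133, the single-replicate members had pooled multiples of 0.45 to 0.69, close to the lowest IDR peak.

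The summits sat just upstream of the start sites. The strongest summit lay upstream in 20 of 23 bound members, and within 200 bp of the TSS in 20 of 23, the exceptions being Nup43, Nup93-1 and Nup58 at 233, 362 and 451 bp upstream. With any IDR summit counted, 20 of the 23 had 1 within 200 bp, beside 3469 of all 4284 bound genes. Such a short distance is thus usual among all bound genes too. The median offset of the strongest summit was -84 bp (-451 to 88, quartiles -149.5 and -50), beside -116 bp (quartiles -189 and -50) for all bound genes. An upstream summit is thus usual among all bound genes as well. Ran, Kap-alpha1 and Fs(2)Ket had theirs 66, 38 and 88 bp downstream. In 7 members 2 or more IDR summits lay at the promoter, as at Mgtor and Ran, with no share of all bound genes given here beside that count. Away from promoters none of the 39 genes had an IDR summit inside its body, beside 4.84% of all protein-coding genes. The members are longer (median 4052 bp against 2164.5 bp). At so low a share few cases could occur among 39 genes, so the absence is not resolved from the background. Peak width had a median of 524 bp (159 to 1965) beside 447 bp (upper quartile 525 bp) for all bound genes. A width of exactly 524 bp recurred at the weak peaks of Elys, Nup188 and Nup93-1, so the median does not show wider binding at the members.

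**Figure D4:**
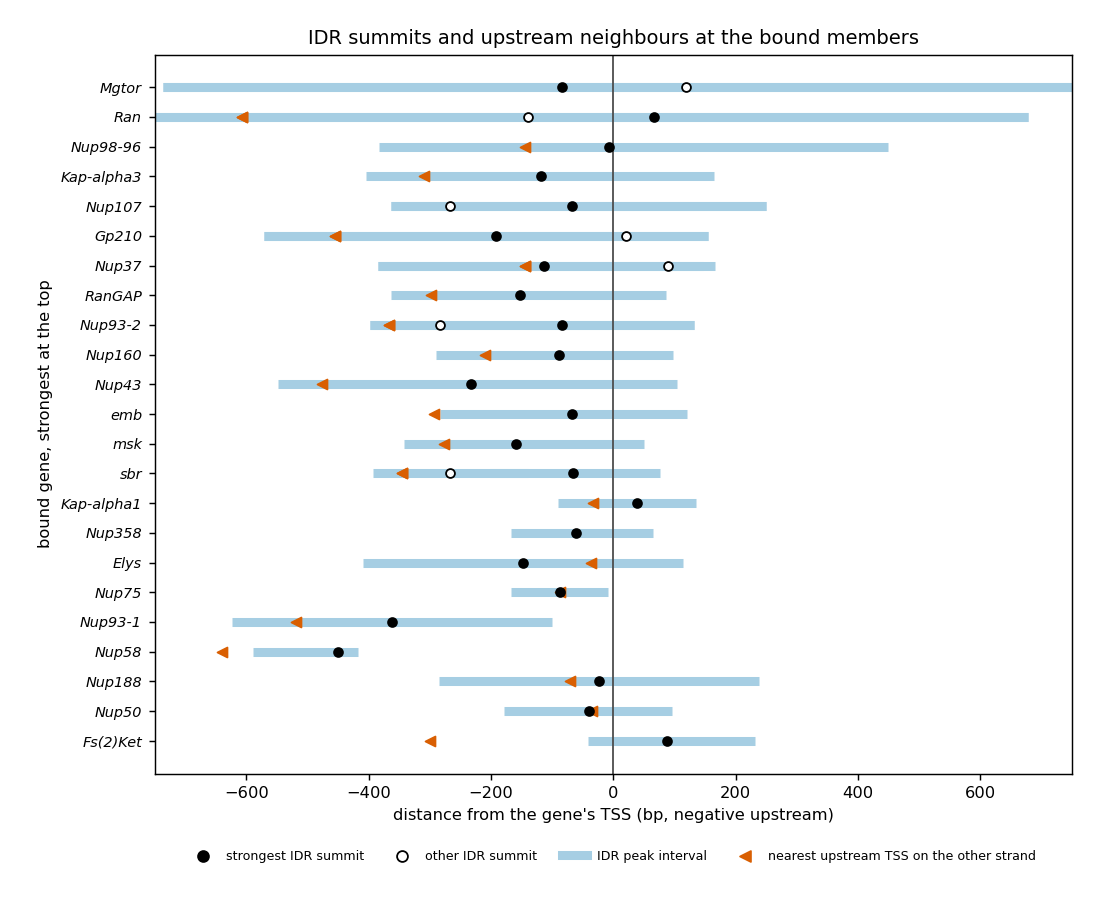
IDR summits (filled, the strongest; open, others), peak intervals (bars, clipped at 750 bp) and the nearest upstream TSS on the other strand (triangles, shown within 700 bp) at the 23 bound members, as distance from the TSS nearest the strongest summit (bp, negative upstream). Most filled points lie left of the TSS and right of the triangle, and those of Ran, Kap-alpha1 and Fs(2)Ket lie right of the TSS.

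Many members share a promoter region with a gene that runs the other way. A head-to-head neighbour within 500 bp upstream was annotated for 24 of 39 members (61.5%), beside 29.6% of all protein-coding genes. Of these 24, 17 (70.8%) were bound, beside 61.3% of all divergent genes, and of the 15 other members 6 (40%) were bound, beside 17.8% of all other genes. Among divergent genes the members' share was thus nearer to the background than over all genes. The highest multiples came from members on both sides of this division: Mgtor, Ran and Nup107 had no such neighbour, and Nup98-96 starts 144 bp from mbc and Kap-alpha3 309 bp from Son. The neighbour of each of the 17 was itself bound by the same rule, under which 1 summit can count for both genes. A summit between both start sites of such a pair always does, so this count followed largely from the rule.

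The strongest summit lay between both start sites in 13 of the 17 bound divergent members (76.5%), beside 75.7% of all bound divergent genes. In 8 of the 23 it was nearest to the TSS of another gene. These were Nup37 (nearest to RpS27, a ribosomal protein gene), RanGAP (Hs2st), msk (Arp3), Elys (Ranbp21), Nup75 (CG42518), Nup93-1 (Clic), Nup58 (Vha13) and Nup50 (Asap). When a summit was assigned to the closest TSS alone, 16 members (41%) were bound beside 22.2% of all genes. By that rule 16 of the 23 bound members stayed bound, beside 3104 of all 4284 bound genes, so losing a summit to a neighbour is not particular to the members. Which gene of such a pair the peak relates to was not tested. The pair of Elys and Ranbp21, the exportin 5 gene, starts 36 bp apart on X, so the same summit belongs to 2 genes of nuclear transport. Nup37 and Nup358 also lie next to each other on 3R, 25247658 to 25249100 and 25249348 to 25258672, on the same strand, with a separate summit at each.

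The shares of bound members with a searched string are given beside those of other promoters. Within 50 bp of the strongest summit, CGATA was found in 7 of 23 (30.4%) beside 31.5% of all bound genes and 24% of all protein-coding promoters, the last in windows of the same length centred 84 bp upstream of the TSS. TATAAA was found in 6 (26.1%, all bound genes 24.9%, all promoters 18.1%), and TCAGT in 5 (21.7%, 15.9% and 17.1%). GAGAG was found in 3 (13%, 6.33% and 13.7%), the full DRE in 2, Nup50 and Nup188 (8.70%, 6.84% and 3.79%), CAGCTG in 2, Nup37 and Nup188 (8.70%, 4.06% and 5.90%), and GGTCACAC in Ran alone (4.35%, 3.87% and 1.78%). The 16 members without an IDR summit, searched 84 bp upstream, held CGATA in 7 cases and the full DRE in 1, Nup54. Median GC content was 32.7% at bound members' summits, beside 31.7% for all bound genes and 37.6% for all promoters. With so few members a difference of 1 or 2 genes moves these shares by several percent.

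Other genes of the pathway were counted by the same rule. Of 6 genes of the pore and of RNA passage through it (tho2 and Nxt1 are also in the mRNA export list) 5 were bound, beside the same 30.7% of all genes, and each replicate alone also gave 5. Dbp80, an RNA helicase that remodels mRNA at the pore, stood at 35.5 times the median (49.2 and 22.7 in replicates 2 and 3), in a bin of which IDR peaks cover 12.2%. The part of the surrounding dense binding in that value was not tested. Sec13, Gle1 and Aladin were at 0.87, 0.72 and 0.72 times, and Nxt1, the partner of the mRNA exporter, was not bound. Of 17 further karyopherin and Ran genes 9 were bound (8 and 10 in replicates 2 and 3 alone). Ranbp16 was the highest of them at 6.12 times (8.17 and 4.42), in a bin of which IDR peaks cover 13.7%. Tnpo-SR, the importer of splicing factors, stood at 2.32 times (2.15 and 2.02), Karybeta3 at 1.51 (1.49 and 1.34) and Rcc1, the chromatin-bound exchange factor that loads Ran with GTP, at 0.99 (0.69 and 0.99). Ipo9, cdm and CG8219 had no promoter peak in either replicate list.

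Of 13 mRNA export genes, tho2 and Nxt1 again among them, 7 were bound, beside 30.7% of all genes, and in each replicate alone also 7. Ref1, the adaptor that hands mRNA to the exporter, reached 22.9 times (23.8 and 18.7) and tho2, a THO complex subunit, 15.8 times (15.3 and 13.3), both above any member. Of the other THO genes, thoc5 was bound at 1.37 times (1.09 and 1.22), and Hpr1, thoc6 and thoc7 were not bound. The signals in mRNA export therefore spread from absence to values above Mgtor.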

How the data were processed

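The deposited data are 4 peak lists of the authors (assembly dm6): 1 for each replicate and 1 for the pooled libraries, 30000 peaks each, called against 1 control alignment, and an IDR list of 5048 peaks derived from them, per the notes deposited with the files. The sources used here name no aligner or peak caller. The deposited signal value of each peak has no stated scale and was used to rank peaks or as a multiple of a median. The deposited −log10 q value is 4.23 for every IDR peak and was not used to rank. Summits were placed from the offset that the authors deposited for each peak. Depth is unknown from these lists.

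Gene models were those of Ensembl release 115 without transposable elements, and the RefSeq copy of genome Release 6 gave sequence. Every peak lies within its chromosome lengths. Calls, distances and strings were computed in Python 3.11.15 with numpy 2.4.6, and call code was checked on planted peaks. No test was run: there is 1 group, and members were described beside all protein-coding genes. The members and lists were chosen with earlier results of these data known. All members are named; full values were given for the 10 strongest, the unbound and those whose status differed between lists. Whether the replicates came from separate cultures of the line is known only from their label as biological replicates. Alternatives tried were a 200-bp and a 1000-bp promoter window, overlap of the peak interval, the stronger IDR peaks, the relaxed list, single replicates, nearest TSS, merged intervals, other TSSs, other divergence distances and other string windows.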

Additional observations from a re-analysis of the deposited data

How the results depend on the processing

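Under all alternatives the members' share bound stayed above that of all genes. It was 14 of 39 with IDR peaks at or above their median signal (all genes 2513) and 36 in the relaxed pooled list (all genes 6464), both of which change the number of peaks by construction. The other settings gave 16 to 24 members, and single replicates 21 to 25. The median multiple, 1.51, was 1.41 to 1.43 over the members that each single replicate called. Over the 23 IDR-bound members it was 1.38 in replicate 2 (22 matched) and 1.24 in replicate 3. It was 1.54 with a 200-bp window, 1.43 with 1000 bp and 1.56 with the nearest TSS only. Chosen after seeing the data, it was 1.59 over members called in both replicates. The median offset of the summit nearest the TSS, -68 bp, was -92 to -79 bp with single replicates. With neighbours within 200 bp, 7 of 11 divergent members were bound, and within 1000 bp 20 of 29, against 17 of 24. The number of divergent members thus changed with the distance, and no share of all genes is given here for the other distances. By role, the central channel fell from 1 bound gene to 0 with a 200-bp window or with replicate 3 alone, and the basket from 2 to 1 with replicate 3 alone. Of 14 motif counts in windows of 25 or 100 bp on each side, 7 moved by over 1.5 times. No paired analysis was possible because there is 1 group. Depth per library is unknown, so a missing peak may be one that was not detectable.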

Other observations

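Genes of the nuclear lamina and envelope, the membrane and protein layer in which pores sit, were also bound in most cases, 9 of 11, with 7 in replicate 2 alone and 10 in replicate 3 alone, beside 30.7% of all genes. The median multiple of the bound ones was 0.93. MAN1, an inner membrane protein, stood at 20.5 times the median IDR peak (22.3 and 16.2 in replicates 2 and 3), in a bin of which IDR peaks cover 23%, and klar, which links nuclei to microtubule motors, at 7.20 times (5.76 and 6.78). Lam, the B-type lamin gene, shares its summit with Hel25E, an mRNA export helicase that starts on the other strand, at 0.76 times (0.75 and 0.65). LamC, the A-type lamin gene, was not bound and had relaxed peaks of 0.26 and 0.39 times in the replicate lists.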
